A study of Mus musculus with 6 samples.

Results

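Potassium channel genes were examined in mouse hearts that overexpress Pontin in cardiomyocytes and in control hearts, all after Ang-II infusion. They were defined as the protein-coding genes whose symbol starts with Kcn, followed by family letters and a number, and 93 of the 56748 genes in the count table met this definition. RNA-seq counts were available from 3 Pontin cTG and 3 WT hearts, each sequenced as its own library, and all 6 mice had been infused with Ang-II, each at 1.5 mg/kg BW/day, until day 14. The transgene of Pontin cTG mice places a human Pontin cDNA with a flag tag behind the αMHC promoter, active in cardiomyocytes, and WT mice are littermates that lack it. Per the study's methods, the mice were males on a C57Bl/6 background, 10 weeks old at the start of the infusion. No hearts without Ang-II belonged to these groups, so a response to Ang-II itself was not compared. Pontin, encoded in the mouse by Ruvbl1, is an ATPase found in chromatin remodelling and transcription complexes. RNA from heart tissue cannot tell fewer cells of a type from less RNA per cell.

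Potassium channels carry the outward currents that repolarise the cardiomyocyte and hold its resting potential. They are assembled from pore-forming α subunits, joined by accessory subunits that alter gating and transport to the surface. The adult mouse ventricle repolarises mainly through the transient outward current (Ito) and slowly inactivating delayed rectifiers (IK,slow), while the rapid and slow delayed rectifiers (IKr and IKs) that dominate in large mammals contribute little there. Loss of transcripts for several of these subunits is a known feature of electrical remodelling in hypertrophied and failing hearts.

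No potassium channel gene passed the test between the groups. Of the 93 genes, 39 passed the filter on low counts, and 0 of these 39 reached a Benjamini-Hochberg adjusted p under 0.05 in edgeR's quasi-likelihood test, which was also the result for all 13888 genes tested (0% called). At an unadjusted p under 0.05, 0 of the 39 were called, against 2.05% of all genes tested (1.02% higher and 1.03% lower in Pontin cTG hearts). Normalised counts (counts brought to a common library size) of the groups failed to overlap in 0 of the 39, against 8.33% of all genes (4.7% higher and 3.63% lower). The smallest unadjusted p among the potassium channel genes was 0.255 in edgeR, for Kcna5, and every adjusted p was 0.999. With 3 hearts per group, the smallest p of an exact permutation test is 0.1, so that this test alone cannot reach 0.05.

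Fitted differences were small and mostly imprecise. The log2 fold change of Pontin cTG against WT was above 0 for 10 of the 39 genes (25.6%) and below 0 for 29, compared with 50.2% above 0 over all genes tested. Its median was -0.06 over the 39 genes and 0.0013 over all genes, and values ran from -0.49 for Kcna2 to 0.54 for Kcna6, the only gene with a size above 0.5. For 28 of the 39 genes the 95% confidence interval of the difference lay within 2-fold in both directions, and this was so for 21 of the 23 genes with a mean level above 1 CPM per kilobase, a level being the counts scaled to a common total (CPM, with TMM factors) and divided by gene length. The direction of the median rested on a single heart: without Pontin cTG replicate 2 the median of the potassium channel genes was 0.07.

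**Figure D1:**
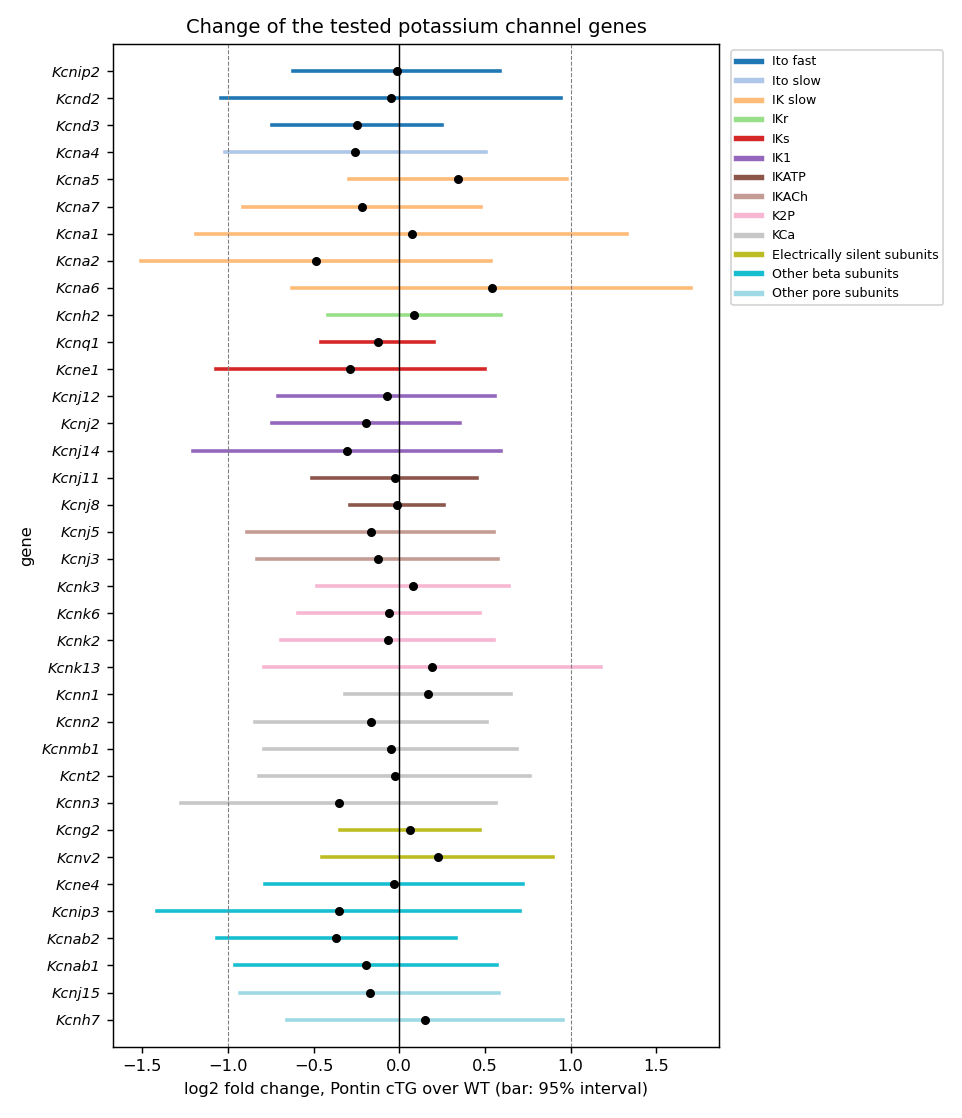
Log2 fold change of Pontin cTG against WT (x axis) for 36 potassium channel genes (y axis; dashed lines mark 2-fold), from edgeR's quasi-likelihood fit, with the 95% confidence interval of each as a bar. Colours give the group of each gene: Ito fast and slow, IK slow, IKr, IKs, IK1, IKATP and IKACh are the cardiac currents, K2P stands for tandem-pore leak channels and KCa for calcium- or sodium-activated channels. Every interval includes 0, and intervals widen toward the genes with few counts, such as Kcna1 and Kcna6.

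The remaining 54 genes were too low to test. Of these, 13 had 0 counts in every library, which out of 85154531 counts allows up to 0.0352 CPM (3 counts over the 6 libraries, for counting error only), and 41 had between 1 and 53 counts over all 6 libraries. Among the low genes were accessory and pore subunits known from other organs or from the atria and large mammals. Kcne2, an accessory subunit of the IKr channel, had 3 counts in all, and Kcnb2, Kcnj6 and Kcnj9 had 1, 1 and 2.

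Levels were compared between genes per length, in CPM per kilobase. By this measure 4 genes led and together held between 55.9% and 62.0% of the summed level of the 93 genes in each heart. The tandem-pore leak channel TASK-1 (Kcnk3, chr5:30745514-30782615 in the table's coordinates, taken as GRCm39) had the highest mean level over the 6 hearts, 75.9 CPM per kilobase. The silent subunit Kv6.2 (Kcng2) followed with a mean level of 46.3, the Kv4 accessory subunit KChIP2 (Kcnip2) with 42.8 and the ATP-sensitive pore subunit Kir6.2 (Kcnj11) with 39.8. Kcng2 lay above Kcnj11 in every heart, while the order of Kcnip2 against each of them changed between hearts. A second tier with mean levels between 11.3 and 16.9 held Kcnj5, Kcnj8, Kcnh2, Kcna5, Kcnj3 and Kcnq1. Each of these overlapped its neighbours in this order, while Kcnj8 lay above Kcnq1 in every heart. Kcnj12, Kcnj2 and Kcnd2 had mean levels between 4.77 and 7.76, and 25 of the 39 genes tested had a lower mean level than Kcnd2.

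**Figure D2:**
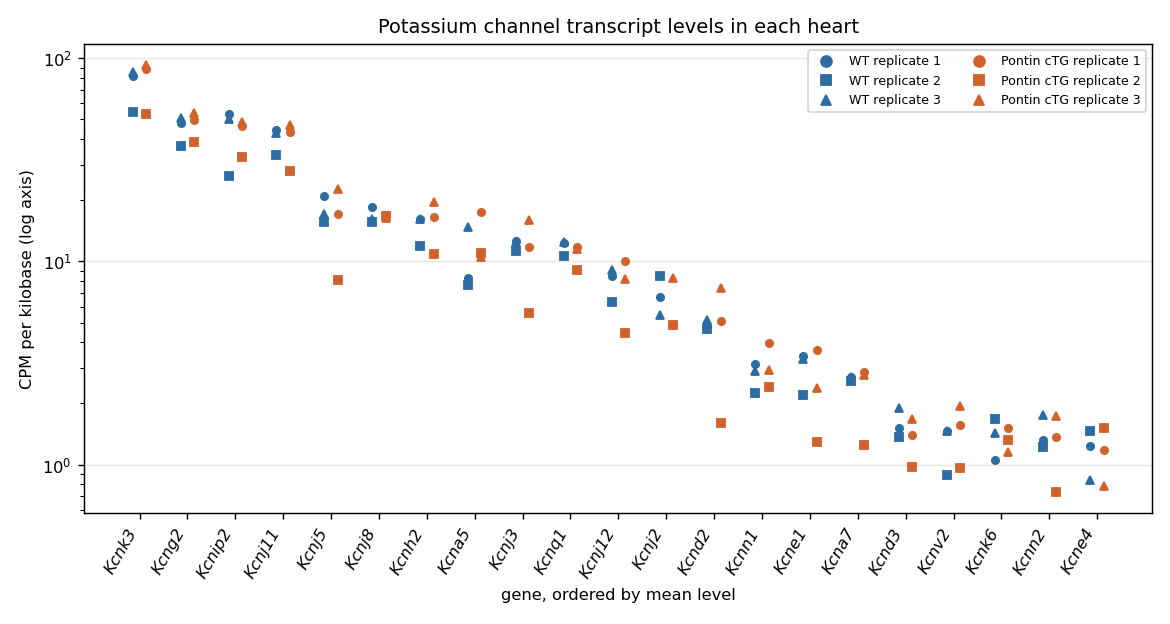
Level of 21 potassium channel genes with a mean level above 1, in CPM per kilobase on a log axis, with 1 point per heart (blue for WT, orange for Pontin cTG, marker shape for the replicate number). Kcnk3, Kcng2, Kcnip2 and Kcnj11 stand above the other genes in every heart, and blue and orange points overlap for each gene.

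The fast transient outward current of the mouse ventricle is carried by the pore subunits Kv4.2 (Kcnd2) and Kv4.3 (Kcnd3) with KChIP2. Of its 4 genes, 3 were tested and all had a fitted log2 fold change below 0, with a median of -0.05. In the order of replicates 1 to 3, used throughout, normalised counts of Kcnd2 (chr6:21215502-21729804) were 347, 337 and 372 in WT and 370.0, 116 and 536 in Pontin cTG hearts. The WT hearts lay close together, whereas the Pontin cTG hearts held both the lowest and the highest value, a 4.60-fold range that was the second widest among the 39 genes. Kcnd2 had a log2 fold change of -0.05 (SE 0.43), with a 95% interval from 0.487-fold to 1.93-fold. Without Pontin cTG replicate 2 it was 0.37 (SE 0.16, unadjusted p = 0.0394 and adjusted p = 0.889 in edgeR's quasi-likelihood test).

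Kcnd3 gave normalised counts of 205, 185 and 257 in WT and 189, 131 and 225 in Pontin cTG hearts, again lowest in Pontin cTG replicate 2 (log2 fold change -0.25, SE 0.22). Kcnip2, the most abundant of the 3, gave 2739, 1357 and 2592 in WT and 2397, 1700.5 and 2519.9 in Pontin cTG hearts. Here replicate 2 was the low heart of each group, and the group means of 2229 ± 759 and 2206 ± 442 (SD, n = 3) differed by far less than the spread (log2 fold change -0.02, SE 0.27). Per length, Kcnip2 exceeded Kcnd2 between 5.65-fold and 20.5-fold, the largest ratio being that of Pontin cTG replicate 2. The ratio of Kcnd2 to Kcnd3 levels ran from 2.69 to 3.38 in WT and from 1.65 to 4.43 in Pontin cTG hearts (exact permutation p = 1). The third Kv4 gene, Kcnd1, had 47 counts in all 6 libraries and was not tested. Kv1.4 (Kcna4), the pore subunit of the slow transient outward current, had a mean level of only 0.355 CPM per kilobase. Its normalised counts of 35.2, 21.3 and 22.4 in WT and 18.6, 22.3 and 25.1 in Pontin cTG hearts overlapped (log2 fold change -0.26, SE 0.34).

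The promoter windows of Kcnd2, which had the widest range between hearts among the abundant genes, and of Kcna5, which had the smallest p, are shown for reference. They are RefSeq sequences on GRCm38.p6, from 250 bases before to 50 bases after the transcription start, written 5′ to 3′ along the gene, and base 251 is the first transcribed base. Both strands were searched for 4 motifs, and capitals mark the matches. The GC box was searched as GGGCGG. The letters of the TATA box were TATAAA. For the GATA motif the search used AGATAA. The MCAT or TEAD element was searched as GGAATG.
Kcnd2 promoter, chr6:21215096-21215395, plus strand: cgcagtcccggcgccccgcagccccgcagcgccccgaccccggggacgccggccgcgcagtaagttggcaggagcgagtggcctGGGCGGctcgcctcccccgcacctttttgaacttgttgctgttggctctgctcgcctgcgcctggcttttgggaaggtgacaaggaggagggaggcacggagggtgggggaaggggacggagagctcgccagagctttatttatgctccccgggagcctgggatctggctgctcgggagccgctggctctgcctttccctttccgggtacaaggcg
Kcna5 promoter, chr6:126535506-126535805, minus strand: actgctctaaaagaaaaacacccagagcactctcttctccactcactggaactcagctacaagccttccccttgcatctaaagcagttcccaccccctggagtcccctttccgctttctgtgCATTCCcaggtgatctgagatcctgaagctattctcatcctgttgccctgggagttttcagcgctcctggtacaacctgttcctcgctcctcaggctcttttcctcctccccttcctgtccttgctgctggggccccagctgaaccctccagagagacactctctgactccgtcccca
Kcnd2 held 1 GC box starting at base 85. Kcna5 held a MCAT element on the opposite strand, starting at base 123. A GC box was found in 35.7% of the 32851 promoters in the table and GGAATG in 14.7%, so that both matches are common, and they describe letters in the window, not binding.

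Kv1.5 (Kcna5) is a pore subunit of IK,slow in the mouse ventricle. Normalised counts of Kcna5 (chr6:126509514-126512375) were 336, 308 and 595 in WT and 706, 442 and 425 in Pontin cTG hearts. The highest value was a Pontin cTG heart and the lowest 2 were WT hearts, but WT replicate 3 exceeded both remaining Pontin cTG hearts. Group means were 413 ± 158 and 524 ± 157 (SD, n = 3), and the log2 fold change was 0.34 (SE 0.28, 95% interval from 0.815-fold to 1.97-fold, exact permutation p = 0.5). The estimate depended on single hearts: in edgeR's quasi-likelihood test it was 0.71 (SE 0.25, unadjusted p = 0.0217, adjusted p = 1.00) without WT replicate 3, and it was 0.08 without Pontin cTG replicate 1.

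Kv1.7 (Kcna7) was nearly constant in WT hearts, with normalised counts of 82.6, 79.6 and 82.7. In Pontin cTG hearts it was 87.9, 38.5 and 84.9, and Pontin cTG replicate 2 alone lay below WT (log2 fold change -0.22, SE 0.31). Kcna1, Kcna2 and Kcna6, Kv1 genes best known from neurons, had mean levels of 0.204, 0.163 and 0.131 CPM per kilobase, and their fitted log2 fold changes of 0.07, -0.49 and 0.54 had SEs between 0.45 and 0.55. Of 5 neuron markers 3, Snap25 and Chat among them, had 0 counts in every heart and the summed level of the list was at most 0.147. The part of neuronal RNA in these low values was not tested.

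**Figure D3:**
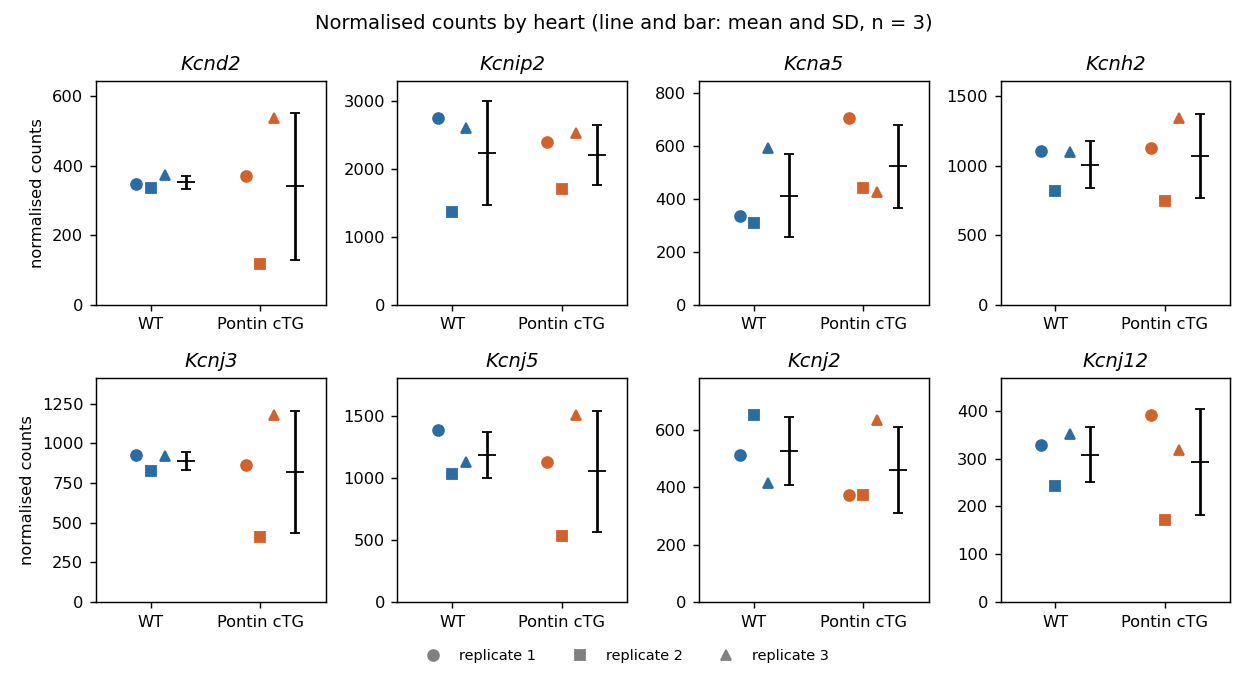
Normalised counts (y axis, starting at 0) of 8 potassium channel genes in each heart, with WT in blue and Pontin cTG in orange, marker shape for the replicate number and a bar for the mean and SD (n = 3). Pontin cTG replicate 2 is the lowest of the 6 hearts for Kcnd2, Kcnh2, Kcnj3, Kcnj5 and Kcnj12, and the groups overlap in all panels.

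Both delayed rectifiers of large mammals had abundant pore transcripts. Normalised counts of Kcnh2, which encodes the IKr pore subunit ERG1, were 1108, 814 and 1100.0 in WT and 1129, 743 and 1340.1 in Pontin cTG hearts. Both groups had their low value in replicate 2, and Pontin cTG replicate 3 was the highest of all (log2 fold change 0.09, SE 0.22). Kcnq1, the IKs pore subunit, gave 711, 610.2 and 718 in WT and 681, 522 and 664 in Pontin cTG hearts, with a narrow interval from 0.729-fold to 1.15-fold (log2 fold change -0.13, SE 0.15). Its accessory subunit minK (Kcne1) varied more, with 154, 99.8 and 149.8 in WT and 166, 58.2 and 108 in Pontin cTG hearts. Kcne1 was again lowest in the second replicate of each group (log2 fold change -0.29, SE 0.35), and per length Kcnq1 exceeded it between 3.22-fold and 7.04-fold. Counts of the antisense gene Kcnq1ot1, which overlaps Kcnq1, amounted to 4.86% of those of Kcnq1.

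The inward rectifier IK1 sets the resting potential through Kir2 subunits. Normalised counts of Kir2.1 (Kcnj2) were 513, 652 and 417 in WT and 372, 374 and 635 in Pontin cTG hearts. The lowest 2 values were Pontin cTG hearts, but Pontin cTG replicate 3 exceeded 2 of the 3 WT hearts (log2 fold change -0.19, SE 0.24). Without that heart the difference was -0.50 in edgeR's quasi-likelihood test (unadjusted p = 0.0362, adjusted p = 0.911). Kir2.2 (Kcnj12) gave 329, 243 and 352 in WT and 391, 171 and 318 in Pontin cTG hearts, with the Pontin cTG group holding the highest and the lowest value (log2 fold change -0.07, SE 0.28). Per length, the ratio of Kcnj12 to Kcnj2 ran from 0.739 to 1.67 in WT and from 0.906 to 2.08 in Pontin cTG hearts, so that neither subunit exceeded the other in every heart. Kcnj14 (Kir2.4) had a mean level of only 0.456 (log2 fold change -0.30, SE 0.40), and Kcnj4 (Kir2.3) had 20 counts in all.

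ATP-sensitive channels combine Kir6 pore subunits with sulfonylurea receptors. Kcnj11 (Kir6.2), the pore subunit of cardiomyocytes, gave normalised counts of 2292, 1723 and 2232 in WT and 2254, 1442 and 2432 in Pontin cTG hearts. Replicate 2 was low in each group and the means of 2082 ± 313 and 2043 ± 528 (SD, n = 3) were close (log2 fold change -0.03, SE 0.21). Kcnj8 (Kir6.1), which is known from vascular smooth muscle and pericytes, was the steadiest of the 39 genes, at 665, 563 and 584 in WT and 608, 599 and 588 in Pontin cTG hearts. Its range over the 6 hearts was 1.18-fold and its interval, from 0.820-fold to 1.20-fold, was narrow (log2 fold change -0.01, SE 0.12). The summed level of 5 pericyte markers was between 193 and 214 in WT and between 182 and 192 in Pontin cTG hearts. Most of this sum was Rgs5 (mean level 155). Of the 5 markers, 2 had a log2 fold change above 0 and 3 below, and the groups overlapped for each of them.

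Of the receptor subunits, SUR1 (Abcc8) was level in all hearts, with group means of 454 ± 10.1 and 444 ± 23.3 normalised counts (SD, n = 3). SUR2 (Abcc9), the receptor of cardiac and smooth muscle, gave 5107, 5499 and 4892 in WT and 4772, 2789 and 4116 in Pontin cTG hearts. All Pontin cTG values lay below all WT values, and Pontin cTG replicate 2 was the lowest, but in edgeR's quasi-likelihood test the log2 fold change of -0.41 (SE 0.20) had an adjusted p of 0.999 (unadjusted, 0.0713). The exact permutation p was 0.1, the smallest it can be. Leaving out Pontin cTG replicate 2 brought this difference to -0.22. In edgeR's quasi-likelihood test it was -0.57 without Pontin cTG replicate 1 (unadjusted p = 0.0221, adjusted p = 0.879). The same edgeR test gave unadjusted p = 0.0390 and adjusted p = 0.938 without a filter on low counts, and unadjusted p = 0.0375 and adjusted p = 0.944 with the replicate block.

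The acetylcholine-activated current IKACh, which slows the heart on vagal stimulation and is strongest in atrium and nodes, is carried by Kir3.1 (Kcnj3) and Kir3.4 (Kcnj5). Normalised counts of Kcnj3 (chr2:55325982-55488157) were 926, 827 and 919 in WT and 863, 411 and 1176 in Pontin cTG hearts, and those of Kcnj5 (chr9:32226003-32255646) were 1386, 1028 and 1129 in WT and 1124, 533 and 1501 in Pontin cTG hearts. For both genes Pontin cTG replicate 2 was the lowest heart and Pontin cTG replicate 3 the highest, so that the Pontin cTG hearts spanned 2.86-fold and 2.82-fold while the WT hearts spanned 1.12-fold and 1.35-fold. The group difference was not larger than this spread, with log2 fold changes of -0.12 (SE 0.31) for Kcnj3 and -0.17 (SE 0.32) for Kcnj5. Without Pontin cTG replicate 2 these were 0.20 and 0.15.

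The proportion of both subunits varied less than their levels. Per length, the ratio of Kcnj3 to Kcnj5 was 0.600, 0.723 and 0.731 in WT and 0.690, 0.693 and 0.704 in Pontin cTG hearts (exact permutation p = 1). The ratio of Pontin cTG replicate 2 lay between those of the other hearts although both of its levels were the lowest. IKACh genes took between 5.52% and 9.93% of the summed potassium channel level, the lowest share being that of Pontin cTG replicate 2. Atrial RNA was scarce in all libraries: Bmp10 and Sln had at most 1 count in any library, Myl7 at most 6, and the summed level of 5 atrial markers was between 1.09 and 3.40 in WT and between 1.85 and 4.99 in Pontin cTG hearts. The highest sum, that of Pontin cTG replicate 2, was mostly Dkk3 (4.32), and Myl7, Sln and Bmp10 had 0 counts in that heart. Myl4 was also highest there, at 43.7 normalised counts against 8.81 to 28.3 in the other hearts. Only 2 of the 5 markers were tested, Myl4 and Dkk3, with log2 fold changes of 0.80 (SE 0.44) and 0.74 (SE 0.56). Whether atrial content moved any value was not tested.

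The promoter windows of both IKACh genes are shown for reference, chosen after their values were seen. Both genes had the same lowest and highest heart, but so did Kcnk3, Kcnj11, Kcnh2 and Kcnd2. Shared control of Kcnj3 and Kcnj5 was not tested. They follow the same conventions as above, with capitals for the GC box GGGCGG.
Kcnj3 promoter, chr2:55435720-55436019, plus strand: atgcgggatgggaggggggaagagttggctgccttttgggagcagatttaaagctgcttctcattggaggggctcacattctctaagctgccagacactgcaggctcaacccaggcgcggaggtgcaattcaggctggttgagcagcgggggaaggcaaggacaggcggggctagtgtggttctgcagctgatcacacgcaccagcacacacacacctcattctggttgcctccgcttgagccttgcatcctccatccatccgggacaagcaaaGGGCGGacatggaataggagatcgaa
Kcnj5 promoter, chr9:32344295-32344594, minus strand: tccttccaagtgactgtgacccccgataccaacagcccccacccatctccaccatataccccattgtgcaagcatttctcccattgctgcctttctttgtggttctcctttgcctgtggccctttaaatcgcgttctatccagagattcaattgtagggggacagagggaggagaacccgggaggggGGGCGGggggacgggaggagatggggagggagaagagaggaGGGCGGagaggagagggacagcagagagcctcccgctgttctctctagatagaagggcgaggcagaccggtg
Kcnj3 held 1 GC box starting at base 275, after the transcription start, and Kcnj5 held 2, starting at bases 188 and 229. Neither window held the TATA box, GATA or MCAT letters as searched. Of the 39 genes tested, 26 had a promoter in the table, with 36 windows in all, and 15 of these windows held the GC box, 3 the MCAT element, 2 the TATA box and 2 the GATA motif.

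Among the tandem-pore channels, 4 of 14 genes were tested and 6 had 0 counts. Kcnk3, encoding the acid-sensitive leak channel TASK-1, gave normalised counts of 4567, 3052 and 4772 in WT and 4961, 2975 and 5172 in Pontin cTG hearts. Replicate 2 was the low heart of both groups (log2 fold change 0.08, SE 0.25). Without Pontin cTG replicate 2, and with the low WT heart kept, the groups did not overlap and the log2 fold change was 0.30. Without WT replicate 2 it was -0.096. The share of all genes whose groups did not overlap without Pontin cTG replicate 2 is given below. Counts of the overlapping antisense gene Gm9899 amounted to 8.83% of those of Kcnk3. Kcnk6 (TWIK-2) had a mean level of 1.36 and a log2 fold change of -0.06 (SE 0.24), and the mechanosensitive TREK-1 (Kcnk2) had a mean level of 0.552 and a log2 fold change of -0.07 (SE 0.27). The value of Kcnk2 is uncertain, because the pseudogene Pdcd5-ps, which overlaps it on the same strand, had 1349 counts in all against 231 for Kcnk2.

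Of 12 genes for channels gated by calcium or sodium, 5 were tested, 1 with a log2 fold change above 0 and 4 below. SK1 (Kcnn1) was the most abundant, with normalised counts of 202, 146 and 187 in WT and 258, 155 and 189 in Pontin cTG hearts, low in replicate 2 of each group (log2 fold change 0.17, SE 0.21). SK2 (Kcnn2) gave 139, 128 and 186 in WT and 144, 77.1 and 183 in Pontin cTG hearts (log2 fold change -0.17, SE 0.30). Kcnmb1, the BK channel accessory subunit of smooth muscle, had a mean level of 0.656 (log2 fold change -0.05, SE 0.33), and the BK pore gene Kcnma1 had 35 counts in all. Smooth muscle markers had a summed level between 73.7 and 101 in WT and between 86.0 and 93.7 in Pontin cTG hearts. Most of this sum was Acta2 (mean level 80.8). Of the 4 smooth muscle markers tested, 1 had a log2 fold change above 0 and 3 below.

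Silent subunits do not form channels alone but join other Kv pore subunits. Kcng2 gave 2019, 1555 and 2149.7 normalised counts in WT and 2100.1, 1625 and 2259 in Pontin cTG hearts, each group with its low value in replicate 2 (log2 fold change 0.06, SE 0.18). Kv8.2 (Kcnv2) gave 106, 63.9 and 105 in WT and 112, 69.4 and 139 in Pontin cTG hearts, with the same low hearts (log2 fold change 0.22, SE 0.30). Accessory genes outside the lists above were low: Kcne4, which inhibits KCNQ1 channels, had a mean level of 1.17, the calcium sensor Kcnip3 of 0.331 and the Kv1 β subunit Kcnab2 of 0.292. Their log2 fold changes were -0.03 (SE 0.33), -0.35 (SE 0.47) and -0.37 (SE 0.31). Of the remaining 22 pore genes 4 were tested, 1 with a log2 fold change above 0 and 3 below. Among them, Kir4.2 (Kcnj15) had a mean level of 0.366 and a log2 fold change of -0.17 (SE 0.33).

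**Figure D4:**
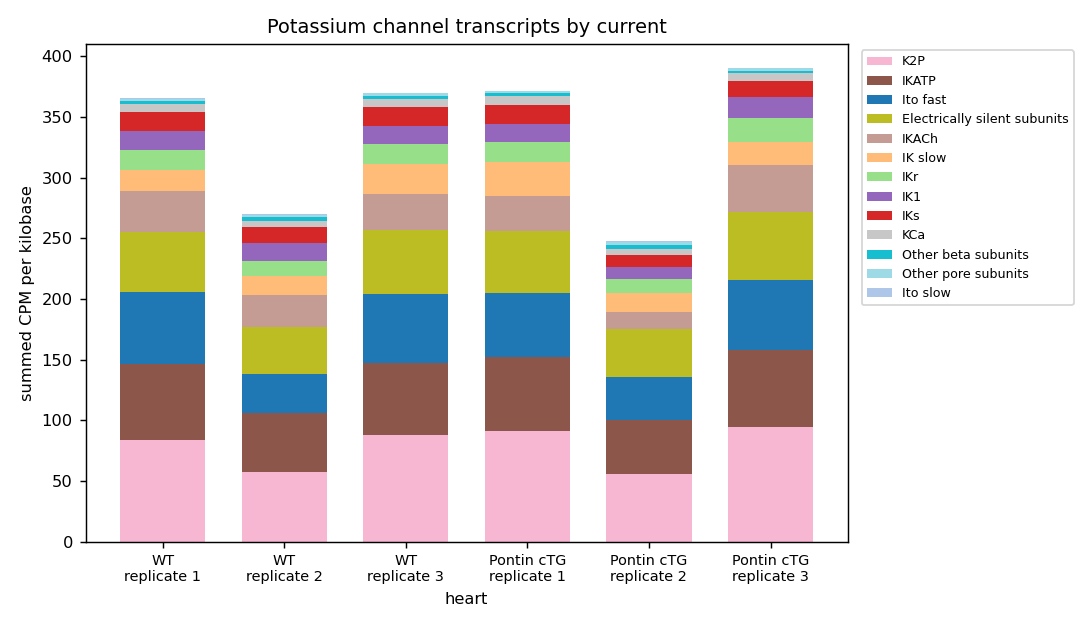
Summed level of the potassium channel genes in each heart (bar height, CPM per kilobase), split by current or class with the colours of the legend (K2P, tandem-pore channels; KCa, calcium- or sodium-activated channels). WT replicate 2 (270.0) and Pontin cTG replicate 2 (248) are the low hearts, and the other 4 lie between 366 and 391.

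Levels of the potassium channel genes varied more within the groups than between their means. The summed level of the 93 genes was 366, 270.0 and 370.0 CPM per kilobase in WT and 372, 248 and 391 in Pontin cTG hearts, so that replicate 2 was the low heart of each group. Group means were 335 ± 56.5 and 337 ± 77.7 (SD, n = 3; exact permutation p = 0.9). Pontin cTG replicate 2 had the lowest normalised count of all hearts for 16 of the 39 genes tested (41.0%), compared with 30.7% of all genes tested. The same heart had the highest normalised count for 7 of the 39 (17.9%), compared with 30.2% of all genes tested. WT replicate 2 was lowest for 7 of the 39 (17.9%), compared with 15.4% of all genes tested. Of the 23 genes with a mean level above 1, 13 were lowest in Pontin cTG replicate 2 and 19 in either that heart or WT replicate 2. For this subset no share over all genes at a like level was computed. The median deviation of the 39 genes from their mean over the 6 hearts, on the log2 scale, was -0.26 in Pontin cTG replicate 2 and -0.09 in WT replicate 2. The ratio of the highest to the lowest normalised count was larger within Pontin cTG hearts for 25 genes and within WT hearts for 14. The same comparison was not made over all genes tested.

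**Figure D5:**
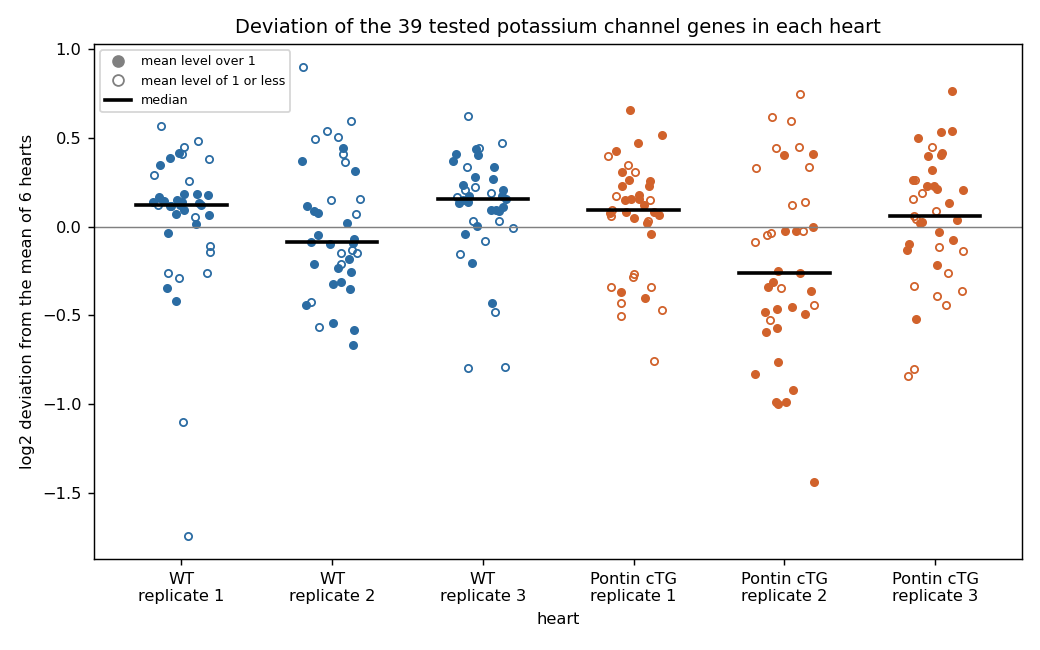
Deviation of each of the 39 potassium channel genes from its mean over the 6 hearts (y axis, log2 of the normalised count plus 0.5) in each heart (x axis), with filled points for genes with a mean level over 1 and a black line for the median. Pontin cTG replicate 2 has the lowest median, -0.26, and holds the lowest filled points, while its open points lie on both sides of 0.

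These 2 hearts also stood apart outside the potassium channel genes. On the first principal component of all genes tested (48.6% of the variance), Pontin cTG replicate 2 lay at 50.9 and WT replicate 2 at 16.2, and the other 4 hearts between -23.1 and -12.9. The summed level of 5 fibroblast markers was 205 in WT replicate 2 and 185 in Pontin cTG replicate 2, against 121 to 141 in the other hearts. Log2 fold changes were above 0 for 2 of them and below 0 for 3. Macrophage markers, 5 in number, summed to 104 in WT replicate 2 and to between 50.8 and 83.8 elsewhere. The most abundant, C1qa (mean level 45.7), had a log2 fold change above 0 and the other 4 below. Groups did not overlap for 1 of the 5 (Csf1r), against 8.33% of all genes tested. Endothelial markers summed to 170.1 in Pontin cTG replicate 2 and to between 121 and 143 in the other hearts. Cardiomyocyte markers were abundant in every heart, with a summed level between 11631 and 12602 in WT and between 10630 and 11417 in Pontin cTG hearts. Of these 5 markers, 1 (Tnnt2) had a log2 fold change above 0 and 4 below. The list of 4 ventricular cardiomyocyte markers was split, with log2 fold changes above 0 for 2 (Myl2 and Myl3) and below 0 for 2 (Irx4 and Hey2). Its summed level, almost wholly that of Myl2 and Myl3, was between 4476 and 5061 in WT and between 5431 and 5950 in Pontin cTG hearts. The part of cell composition in the low potassium channel levels was not tested. Total counts ran from 12436822 to 13194038 in WT and from 14584102 to 16888124 in Pontin cTG libraries. Ruvbl1, the mouse gene of Pontin, gave 216, 221 and 217 normalised counts in WT and 249.9, 250.0 and 240.0 in Pontin cTG hearts, higher in all 3 Pontin cTG hearts (log2 fold change 0.18, SE 0.12, exact permutation p = 0.1), and reads of the human transgene need not align to it.

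Without Pontin cTG replicate 2, 8 of the 39 genes had groups that did not overlap, against 21.5% of all genes tested in the same libraries. Kcnk3, Kcnh2, Kcnv2 and Kcna7 were among those then higher in the remaining Pontin cTG hearts, and Kcnj15, Kcnn3 and Kcnip3 among those lower. In edgeR's fit without that heart, 0 of the 41 potassium channel genes then tested reached an adjusted p under 0.05, and 2, Kcnd2 and Kcnn3, had an unadjusted p under 0.05, against 4.91% of all genes tested.

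Genes whose products bind, traffic or transcriptionally control cardiac potassium channels were read from the same fit. Of 17 such genes 14 were tested, with log2 fold changes above 0 for 4 and below 0 for 10, and 0 passed an unadjusted p of 0.05. For 2 of the 14, Abcc9 (above) and Cav3, every Pontin cTG value lay outside the WT range on 1 side, as for 8.33% of all genes tested. Caveolin-3 (Cav3), which organises the membrane domains that hold several of these channels, gave 764, 836 and 856 normalised counts in WT and 862, 1027 and 863 in Pontin cTG hearts. The log2 fold change was 0.16 (SE 0.13), and its 95% interval, from 0.914-fold to 1.37-fold, included no change. Dpp6, an accessory subunit of Kv4 channels in neurons, had 0 counts in every heart, and Klf15, a transcription factor known to control Kcnip2, had a log2 fold change of 0.18 (SE 0.25).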

How the data were processed

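RNA was sequenced from the hearts of 3 Pontin cTG and 3 WT mice after Ang-II, and the deposited table holds counts per Ensembl gene that the authors did not normalise. The submitters' processing notes name fastp, HISAT2, featureCounts, DESeq2 and GRCm39, whereas the methods of the study, written for both of its mouse models, name Trimmomatic, STAR, mm10 and Gencode M25. The table's coordinates are not those of GRCm38. The counter's strand setting is not given in the sources used here, so reads of a gene and of an overlapping or antisense gene may not be separated. This touches 7 potassium channel genes, in which an overlapping gene had at least 5% of their counts, and in Kcnk2 and Kcnh7 the overlapping gene had more counts than the member itself.

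Every sample column was matched to its sample by name (0 unmatched). Genes were filtered with filterByExpr (minimum count 10), and libraries were scaled by TMM. The groups were tested in R 4.3.3 with edgeR 4.0.16 (robust glmQLFit followed by glmQLFTest, the quasi-likelihood test) in a model of genotype alone, and p-values were adjusted over 13888 genes by the Benjamini-Hochberg method. SEs of log2 fold changes were derived from the F statistic (size over root F). A normalised count is the deposited count brought to a common library size, the geometric mean of the TMM-scaled sizes, and a level is the TMM-scaled CPM per kilobase of the deposited gene length. Total counts were 12436822 to 16888124 per library. Chi-square per gene was at least 5.55 for any pair of libraries, so none was treated as a repeat. Nothing says that replicate numbers pair the mice, and the libraries were treated as unpaired. Exact permutation tests were two-sided. The study mentions an outlier in a principal component analysis without naming it, and all 6 libraries were kept.

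The genes named are every tested subunit of the listed cardiac currents, the 3 most abundant genes of each other class, partner genes whose groups did not overlap with Abcc8, Abcc9 and Dpp6, and Ruvbl1. Some genes covered by this rule are not reported here, and figures leave them out. Kcnn3, genes with groups that did not overlap when a library was left out, genes too low to test, Klf15 and overlapping genes were named after their values were seen. Members, lists and tests were chosen with earlier results of these data known. Alternatives were DESeq2 1.42.0, DESeq2 size factors, library size alone, no filter, 10 counts or more in each library, restriction to protein-coding genes, removal of mitochondrial genes, a replicate block, limma-voom with quality weights (limma 3.58.1) and each library left out. Scripts were tested on simulated data.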

Additional observations from a re-analysis of the deposited data

How the results depend on the processing

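No potassium channel gene reached an adjusted p under 0.05 in the main test or under any of the alternatives, including each library left out. Over all genes, 0 were called by edgeR's quasi-likelihood test (285 at an unadjusted p under 0.05), 1 by DESeq2, 3 without a filter, 3 by limma-voom with quality weights and between 0 and 3 with a library left out (3 without Pontin cTG replicate 2). Potassium channel genes at an unadjusted p under 0.05 numbered 0 in the main test, 2 of 39 by limma-voom (Kcna5 and Kcnn3, against 5.83% of all genes) and between 0 and 2 with a library left out (against 0.847% to 4.91%). The number whose groups did not overlap, with alternatives chosen after seeing the data, was 0 under DESeq2 size factors (8.32% of all genes) and under library size alone (8.72%), and between 1 and 8 of 39 with a library left out (13.1% to 21.5%).

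Among the named genes, library size alone turned the sign of Kcnip2 (0.010), Kcnj8 (0.019), Kcne4 (0.014) and Abcc8 (0.00014) on the log2 scale. limma-voom turned that of Kcnj11 (0.027), Kcnj12 (0.088), Kcnd2 (0.13), Kcnk6 (0.17), Kcnk2 (0.021) and Kcnmb1 (0.062). With a library left out, the sign of 23 named genes turned in at least 1 setting, with the ranges Abcc8 (-0.070 to 0.0056), Kcna1 (-0.38 to 0.41), Kcna4 (-0.39 to 0.015), Kcna7 (-0.40 to 0.081), Kcnd2 (-0.54 to 0.37), Kcne1 (-0.69 to 0.022), Kcne4 (-0.27 to 0.19), Kcng2 (-0.064 to 0.19), Kcnh2 (-0.11 to 0.29), Kcnip2 (-0.27 to 0.16), Kcnj11 (-0.17 to 0.17), Kcnj12 (-0.33 to 0.20), Kcnj15 (-0.42 to 0.057), Kcnj3 (-0.48 to 0.20), Kcnj5 (-0.51 to 0.15), Kcnj8 (-0.062 to 0.066), Kcnk2 (-0.16 to 0.073), Kcnk3 (-0.096 to 0.30), Kcnk6 (-0.22 to 0.095), Kcnmb1 (-0.28 to 0.20), Kcnn1 (-0.043 to 0.32), Kcnn2 (-0.45 to 0.12) and Kcnv2 (-0.015 to 0.46). The cause was not tested. The remaining 473 values kept their sign and their side of the threshold.

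Deviations from the group mean were compared only between same-numbered libraries, not between libraries with different numbers. Their correlations over all genes tested were 0.06, 0.43 and 0.18 for replicates 1 to 3. These values cannot tell whether the numbers pair the mice or stand for a shared batch. The libraries were treated as unpaired because nothing says that the numbers pair the mice. With the replicate block 0 potassium channel genes were called, the median was -0.08 and Kcnip2 turned to 0.029. Another 54 genes were too low to test, and the parts of depth and of absent expression in this were not separated. For the genes tested, 3 hearts per group limit what can be detected.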

Other observations

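Non-coding genes that share a potassium channel symbol were outside the definition. Kcnq1ot1, the antisense transcript within Kcnq1, gave normalised counts of 22.0, 24.7 and 20.1 in WT and 24.4, 75.3 and 14.7 in Pontin cTG hearts in the order of replicates. It was highest in Pontin cTG replicate 2, as were 30.2% of all genes tested, and its log2 fold change was 0.78 (SE 0.56). Kcnq1 was lowest in that heart, as were 30.7% of all genes tested, and a link between Kcnq1ot1 and Kcnq1 was not tested. Kcnd3os, antisense to Kcnd3, lay between 6.85 and 10.1 in all 6 hearts and was not tested. Among the partner genes, Rnf207, which encodes a ubiquitin ligase that acts on the ERG channel, gave 545, 586 and 515 in WT and 391, 1116 and 490.3 in Pontin cTG hearts, again set apart by Pontin cTG replicate 2 (log2 fold change 0.28, SE 0.34). These genes were chosen after their values were seen.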
